A study of Mus musculus with 18 samples.

Results

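The replication-dependent histone genes were examined in RNA-seq of whole mouse embryos. A gene was a member when its symbol began with Hist1h, Hist2h, Hist3h or Hist4h, and 67 of the 34244 genes of the expression table met this rule. They comprised 6 genes for the linker histone H1, 18 for H2A, 18 for H2B, 12 for H3 and 13 for H4. The embryos were of the FVB strain at stage E11.5, with 1 library from each of 3 Dnmt3b+/+ embryos, 3 embryos labelled Dnmt3b-/- and 3 Dnmt3bCI/CI embryos. Dnmt3b is a DNA methyltransferase that sets new methylation in the early embryo. The CI allele codes for a catalytically inactive enzyme made from the endogenous locus, placed by CRISPR editing of fertilised eggs. The Dnmt3b-/- embryos are described as carrying a conventional knockout allele derived from mice with loxP sites in Dnmt3b, and which part of the gene it lacks is not given in the sources used here. The study compared the 3 genotypes to separate the catalytic activity of Dnmt3b from its other functions.

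Replication-dependent histone genes supply the core histones and linker histones that package newly copied DNA. They lie in clusters, have no or few introns, and are transcribed mainly in S phase of the cell cycle. Their mRNA usually ends just after a short stem-loop that takes the place of a poly(A) tail, and Slbp binds this stem-loop. Some members are known to give polyadenylated transcripts as well, mostly in cells that have stopped dividing. Replication-independent histones such as H2afz and H3f3b come from ordinary polyadenylated mRNA throughout the cycle.

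Levels are given as FPKM, the number of sequenced fragments set against the length of the transcript and the size of the library. The deposited values have no 0, as a gene without reads is listed at the value of 0.9 reads. Whole reads were worked back from the values, and 20754392 to 26772779 reads per embryo fell on the listed genes. The members together took 2990 to 4789 of these reads per embryo. Most single values therefore rest on few reads, and 7 to 20 members per embryo had 3 reads or fewer. The FPKM of Dnmt3b itself was 2.25, 1.62 and 2.04 in the Dnmt3b+/+ embryos, 2.45, 3.12 and 3.33 in the embryos labelled Dnmt3b-/-, and 2.06, 1.98 and 2.32 in the Dnmt3bCI/CI embryos. The value over the whole gene was thus not lower under the label Dnmt3b-/- (log2 fold change 0.57 ± 0.15 (SE), adjusted p = 0.0248), so every direction given for that group rests on the label. Reads from a part of the gene that the allele keeps would check nothing. For the label, the paper reports genotyping on yolk sac DNA and an immunoblot of Dnmt3b in E11.5 embryos of these genotypes. Of the markers of embryonic tissue, the liver marker Afp was at 0.119 FPKM in Dnmt3b+/+ embryo 2 and at 23.8 to 93.3 FPKM in the other 8 embryos. The labels say that total RNA was taken, but whether poly(A) RNA was selected for the libraries is not given in the sources used here.

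The stem-loops after the coding part are shown first, because they set how these transcripts end. A stem-loop of 16 bases was found in 65 of the 67 members, 21 to 58 bases after the stop codon, in the GRCm38 genome. Hist1h2an and Hist2h2be had none within 200 bases of the stop codon under the letters searched. The most frequent form was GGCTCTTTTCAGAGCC, carried by 5 of 6 H1, 15 of 18 H2A, 13 of 18 H2B and 8 of 12 H3 members. No H4 member carried it. Instead 8 of the 13 H4 members carried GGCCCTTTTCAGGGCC, in which both arms of the stem differ. The lines show 1 member of each class that was higher in the embryos labelled Dnmt3b-/- below, a second H4 form and 1 abundant member from outside the large cluster. Capitals mark the 16-base stem-loop, on the strand of the gene, and the position given is that of the capitals.
Hist1h1b, minus strand, chr13:21779837-21779852: ccccaaaGGCTCTTTTCAGAGCCacctaga
Hist1h2ao, plus strand, chr13:21810898-21810913: aaaaaaaGGCTCTTTTCAGAGCCatccaca
Hist1h2bm, plus strand, chr13:21722506-21722521: acacaaaGGCTCTTTTCAGAGCCactaagc
Hist1h3f, plus strand, chr13:23544932-23544947: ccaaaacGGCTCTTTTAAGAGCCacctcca
Hist1h4n, minus strand, chr13:21831798-21831813: aactaaaGGCCCTTTTCAGGGCCatccaat
Hist1h4i, minus strand, chr13:22040966-22040981: acttaaaGGCCCTTTTTAGGGCCaccacaa
Hist3h2ba, plus strand, chr11:58949349-58949364: acccaaaGGCTCTTTTCAGAGCCaccttcc

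The members lie on 4 chromosomes, with 54 on chromosome 13, 10 on chromosome 3, 2 on chromosome 11 and 1 on chromosome 6. Their annotated exons measured 312 to 7425 bases in all, with a median of 539. In 38 members the annotated exon ended at most 100 bases past the stem-loop, or before it, and in 27 it ran on for more than 100 bases. Since FPKM divides by annotated length, a member with a long annotated end has a lower value for the same number of reads. Sequence is also shared. Exon windows of 150 bases, the length of 1 read, were compared among the members only, and exons of other genes were not searched. For 20 members at least 50% of these windows occurred in another member as well, and for 17 members no window did. The authors kept well-mapped reads, so reads from shared windows may be lost or placed on a copy, and values of the members with many shared windows are uncertain. The exons of 21 members overlap a gene on the opposite strand, among them all 18 H2A members, and whether counting used strand is not stated.

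H2A and H2B made up most of the summed level. In the Dnmt3b+/+ embryos the H2A members summed to 84.2, 46.0 and 59.6 FPKM and the H2B members to 26.5, 37.1 and 23 FPKM. The H3 members summed to 12.3, 6.85 and 6.45 FPKM, the H4 members to 12.3, 5.34 and 7.43 FPKM, and the H1 members to 6.43, 4.03 and 4.75 FPKM. The embryos of these 3 lower classes overlapped, so their order does not stand out from the spread. A few genes carried each sum over the 9 embryos, as Hist3h2ba held 66.9% of the H2B level, Hist1h1c held 74.7% of the H1 level and Hist1h2ak held 34.3% of the H2A level. No H3 or H4 member held more than 27.5% of its class.

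The 3 most abundant members of H2A and the most abundant H2B gene were not called in any comparison. Hist1h2ak, an H2A gene of the chromosome 13 cluster, measured 32.9, 10.2 and 20.2 FPKM in Dnmt3b+/+, 15.2, 17.7 and 28.7 FPKM in embryos labelled Dnmt3b-/-, and 32.6, 46.8 and 42.6 FPKM in Dnmt3bCI/CI. Hist3h2ba, an H2B gene of chromosome 11, measured 17.7, 31.0 and 17.4 FPKM, then 19.9, 11.3 and 10.2 FPKM, then 18.7, 20.6 and 22.2 FPKM in the same order of genotypes. Its neighbour Hist3h2a measured 8.38, 13 and 9.59 FPKM, then 9.88, 6.84 and 6.29 FPKM, then 10.8, 11.2 and 11.3 FPKM. The Dnmt3b+/+ embryos overlapped those labelled Dnmt3b-/- in all 3 genes. Hist3h2a shares its reads with Trim17, whose exons overlap it on the same strand, and the ratio of their FPKM stayed between 1.78 and 1.87 in all 9 embryos.

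**Figure D1:**
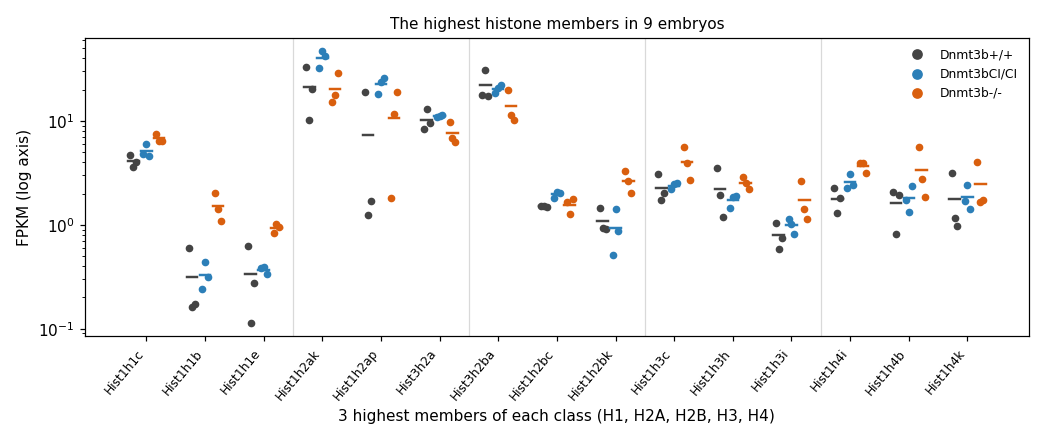
FPKM (log axis) of the 3 highest members of each histone class in the 9 embryos; each point is 1 embryo and each short line the mean of 3. Hist3h2ba and Hist3h2a overlap between Dnmt3b+/+ and Dnmt3b-/-, Hist1h1c and Hist1h4i lie higher in Dnmt3b-/-, and Hist1h2ap is split between 1.25 to 1.82 FPKM and 11.7 FPKM or more.

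Against Dnmt3b+/+, every histone member that passed the test was higher under the label Dnmt3b-/-. Of the 67 members, 59 passed the filter on low values (at least 0.1 FPKM in at least 3 embryos) and were tested with limma, with p-values adjusted over all 19397 genes tested. A member was called when its adjusted p was under 0.05 and its change at least 2-fold. In this comparison 16 members were called higher and 0 lower, while 1.07% of all genes tested were called higher and 3.38% lower. Without the fold limit, 22 members rose and 0 fell by adjusted p, beside 9.41% of all genes that rose and 16.4% that fell. At an unadjusted p under 0.05, 30 members rose and 1 fell, beside 2838 that rose and 4921 that fell of all 19397 genes. The 3 embryos labelled Dnmt3b-/- lay above all 3 Dnmt3b+/+ embryos in 26 of the 59 members, beside 15.1% of all genes. The median log2 fold change was 0.74 over the 59 members and -0.07 over all genes tested, on the log2(FPKM + 0.1) scale, which understates changes of low genes. Taken over all 67 members without the filter, the median was 0.70. Among the tested members, Hist1h1d, Hist1h2bh, Hist1h2bp and Hist1h4c passed the filter only with the help of the embryos labelled Dnmt3b-/-, the group where they are high, so the counts over the 59 are a description. Without these 4 members, 16 of 55 were called higher, 21 rose by adjusted p and 24 lay above without overlap.

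The count depended on single embryos. It was 6 without Dnmt3b+/+ embryo 2, 6 without Dnmt3b+/+ embryo 3, 7 without Dnmt3b-/- embryo 1 and 5 without Dnmt3b-/- embryo 2, while the number called lower stayed at 0. Embryos are mixtures of cell types, and in such bulk samples more cells in S phase and more histone RNA per cell cannot be told apart.

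**Figure D2:**
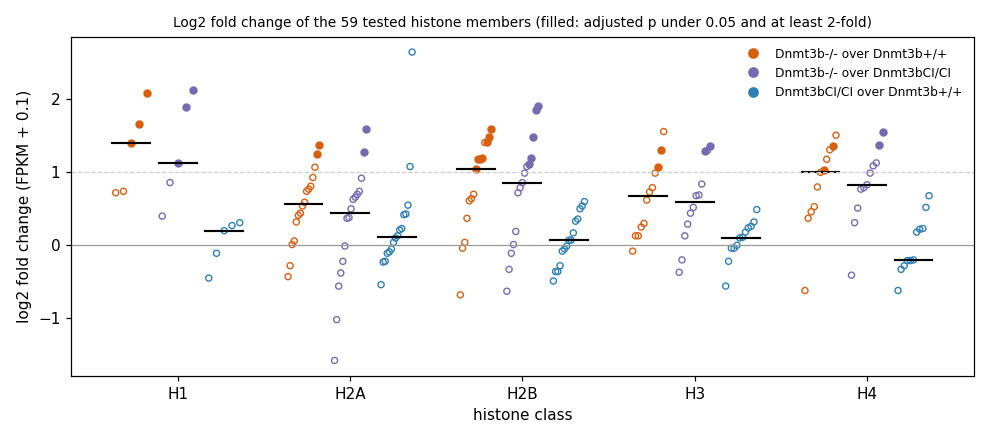
Log2 fold change on the log2(FPKM + 0.1) scale of each tested member, by histone class and comparison; filled points passed an adjusted p of 0.05 and a 2-fold change, black lines are medians, and the dashed line marks 2-fold. Both comparisons of Dnmt3b-/- are shifted upward in each class, with medians from 0.44 to 1.4, and Dnmt3bCI/CI against Dnmt3b+/+ has no filled point.

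Linker histone H1 compacts the nucleosome fibre, and 3 of its 5 tested genes were called higher. All 5 rose by adjusted p, but Hist1h1d passed the filter only through the embryos labelled Dnmt3b-/-, and without it the count was 4 of 4. Hist1h1b was measured at 0.603, 0.162 and 0.172 FPKM in Dnmt3b+/+ and at 2.02, 1.42 and 1.10 FPKM in embryos labelled Dnmt3b-/-, against 0.240, 0.435 and 0.315 FPKM in Dnmt3bCI/CI. All 3 embryos labelled Dnmt3b-/- were above the other 6, and Hist1h1b had the largest fold change of any member (log2 fold change 2.09 ± 0.39 (SE), adjusted p = 0.00777). These values rest on 5 to 20 reads per Dnmt3b+/+ embryo and 33 to 60 reads per embryo labelled Dnmt3b-/-. Hist1h1a measured 0.363, 0.0813 and 0.206 FPKM in Dnmt3b+/+, 0.880, 0.921 and 0.732 FPKM in embryos labelled Dnmt3b-/- and 0.120, 0.0312 and 0.246 FPKM in Dnmt3bCI/CI. The groups did not overlap here either (1.67 ± 0.40, adjusted p = 0.0186). Hist1h1e measured 0.627, 0.114 and 0.277 FPKM, then 0.831, 1.01 and 0.946 FPKM, then 0.381, 0.395 and 0.337 FPKM in the order Dnmt3b+/+, Dnmt3b-/-, Dnmt3bCI/CI (1.4 ± 0.36, adjusted p = 0.0252), and its annotated exons overlap those of Hist1h2be. None of the windows of Hist1h1b or Hist1h1a occurs in another member.

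Hist1h1c, the most abundant H1 gene and one known to give polyadenylated transcripts, rose less. It measured 4.71, 3.58 and 4.02 FPKM in Dnmt3b+/+, 7.57, 6.39 and 6.40 FPKM in embryos labelled Dnmt3b-/- and 4.78, 5.98 and 4.60 FPKM in Dnmt3bCI/CI. The change was below 2-fold but had 246 reads or more behind every value (log2 fold change 0.72 ± 0.13, adjusted p = 0.00718). The testis-expressed Hist1h1t had 11 reads in all 9 embryos, between 0 and 6 per embryo, and was not tested.

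H2A and H2B form the outer dimers of the nucleosome. Of the 16 tested H2A members, 2 were called higher. Hist1h2ao measured 3.41, 5.56 and 8.45 FPKM in Dnmt3b+/+, 13.1, 14.0 and 15.6 FPKM in embryos labelled Dnmt3b-/- and 4.22, 5.58 and 4.23 FPKM in Dnmt3bCI/CI. It was the only member called in each of the 18 alternative settings (1.37 ± 0.28, adjusted p = 0.0102), but 91.5% of its windows occur in other members as well. Hist1h2ab measured 0.663, 0.170 and 0.270 FPKM, then 1.38, 0.845 and 0.626 FPKM, then 0.471, 0.488 and 0.605 FPKM in the same order. Its groups overlapped (1.25 ± 0.38, adjusted p = 0.0438), and it kept its call in 6 of the 18 settings. Among the H2A members with the highest levels, Hist1h2ak changed by 0.06 ± 0.40 (adjusted p = 0.921), Hist1h2ap by 1.07 ± 1.08 (adjusted p = 0.495) and Hist3h2a by -0.43 ± 0.19 (adjusted p = 0.129) on the log2 scale. The testis-expressed Hist1h2aa had 1 read in the 9 embryos, in Dnmt3b-/- embryo 3.

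H2B was the class with the most calls, 7 of 15 tested members. Hist1h2bj measured 0.387, 0.304 and 0.110 FPKM in Dnmt3b+/+, 1.14, 1.22 and 0.586 FPKM in embryos labelled Dnmt3b-/- and 0.289, 0.399 and 0.506 FPKM in Dnmt3bCI/CI (1.59 ± 0.36, adjusted p = 0.0152). Hist1h2bm measured 0.598, 0.192 and 0.243 FPKM, then 0.957, 1.26 and 0.988 FPKM, then 0.255, 0.0882 and 0.397 FPKM (1.49 ± 0.40, adjusted p = 0.0288). Hist1h2bb measured 0.485, 0.0790 and 0.251 FPKM, then 0.888, 0.509 and 1.07 FPKM, then 0.175, 0.0909 and 0.154 FPKM (1.42 ± 0.41, adjusted p = 0.0373). In all 3 genes the lowest embryo labelled Dnmt3b-/- was above the highest Dnmt3b+/+ embryo, and no window of Hist1h2bm is shared with another member. Hist1h2bk, one of the highest H2B members, measured 1.46, 0.928 and 0.911 FPKM in Dnmt3b+/+, 3.32, 2.62 and 2.02 FPKM in embryos labelled Dnmt3b-/- and 0.515, 1.41 and 0.874 FPKM in Dnmt3bCI/CI (1.20 ± 0.33, adjusted p = 0.0299). The other called H2B members, Hist1h2bn, Hist1h2bg and Hist2h2bb, had log2 fold changes of 1.19, 1.18 and 1.05. Of the 18 alternative settings, Hist1h2bb kept its call in 6, Hist1h2bn in 5, Hist1h2bm in 10, Hist1h2bk, Hist1h2bg and Hist2h2bb in 11 each and Hist1h2bj in 15.

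Other H2B members did not pass the test. Hist1h2bc measured 1.53, 1.53 and 1.48 FPKM in Dnmt3b+/+, 1.65, 1.28 and 1.77 FPKM in embryos labelled Dnmt3b-/- and 1.83, 2.08 and 2.02 FPKM in Dnmt3bCI/CI, and its log2 fold change between the first 2 groups was 0.04 ± 0.12 (adjusted p = 0.839). That of Hist2h2be was -0.04 ± 0.17 (adjusted p = 0.895) and that of Hist3h2ba -0.68 ± 0.28 (adjusted p = 0.109). The 11 members listed as known to give polyadenylated transcripts had 9 tested genes, of which Hist1h2bk and Hist1h2bj were called higher and 0 lower, with a median log2 fold change of 0.04. The testis-expressed Hist1h2ba had 3 reads, all in Dnmt3b-/- embryo 1.

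H3 and H4 form the central tetramer of the nucleosome. Each class had 2 called members, of 12 and 11 tested. Hist1h3f measured 0.213, 0.127 and 0.263 FPKM in Dnmt3b+/+, 1.09, 0.429 and 0.528 FPKM in embryos labelled Dnmt3b-/- and 0.159, 0.22 and 0.186 FPKM in Dnmt3bCI/CI (1.31 ± 0.30, adjusted p = 0.0161). Hist1h3g measured 0.718, 0.265 and 0.481 FPKM, then 1.23, 0.843 and 1.21 FPKM, then 0.504, 0.697 and 0.491 FPKM (1.08 ± 0.29, adjusted p = 0.0267). Both lay above every embryo of the other genotypes in all 3 embryos labelled Dnmt3b-/-. The more abundant H3 genes had values that spread more or moved less. Hist1h3c measured 3.06, 1.75 and 2.02 FPKM, then 5.57, 3.92 and 2.70 FPKM, then 2.19, 2.46 and 2.52 FPKM (0.79 ± 0.26, adjusted p = 0.0585), and Hist1h3i 1.04, 0.586 and 0.744 FPKM, then 2.62, 1.43 and 1.14 FPKM, then 1.14, 1.01 and 0.823 FPKM (0.99 ± 0.30, adjusted p = 0.0400). Hist1h3h measured 3.54, 1.95 and 1.18 FPKM, then 2.87, 2.52 and 2.22 FPKM, then 1.46, 1.85 and 1.90 FPKM, with overlapping groups (0.30 ± 0.32, adjusted p = 0.518).

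The highest H4 gene was also called. Hist1h4i measured 2.25, 1.30 and 1.82 FPKM in Dnmt3b+/+, 3.97, 3.95 and 3.19 FPKM in embryos labelled Dnmt3b-/- and 2.24, 3.08 and 2.40 FPKM in Dnmt3bCI/CI (1.03 ± 0.20, adjusted p = 0.00828), with 47 reads or more in every embryo and 2.1% of its windows shared. Hist1h4n measured 0.677, 0.280 and 0.296 FPKM, then 0.933, 1.42 and 1.15 FPKM, then 0.259, 0.269 and 0.484 FPKM (1.36 ± 0.31, adjusted p = 0.0159), and 77.2% of its windows are shared with Hist1h4m. In both genes the embryos labelled Dnmt3b-/- were all higher than the other 6. Hist1h4b measured 2.09, 0.809 and 1.93 FPKM, then 5.56, 2.78 and 1.86 FPKM, then 1.74, 1.34 and 2.36 FPKM (1.00 ± 0.44, adjusted p = 0.129). Hist1h4k measured 3.16, 1.16 and 0.981 FPKM, then 4.02, 1.66 and 1.74 FPKM, then 1.71, 2.44 and 1.42 FPKM (0.53 ± 0.46, adjusted p = 0.432). In both, 1 embryo of the Dnmt3b-/- group stood well above the other 2 and the groups overlapped.

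**Figure D3:**
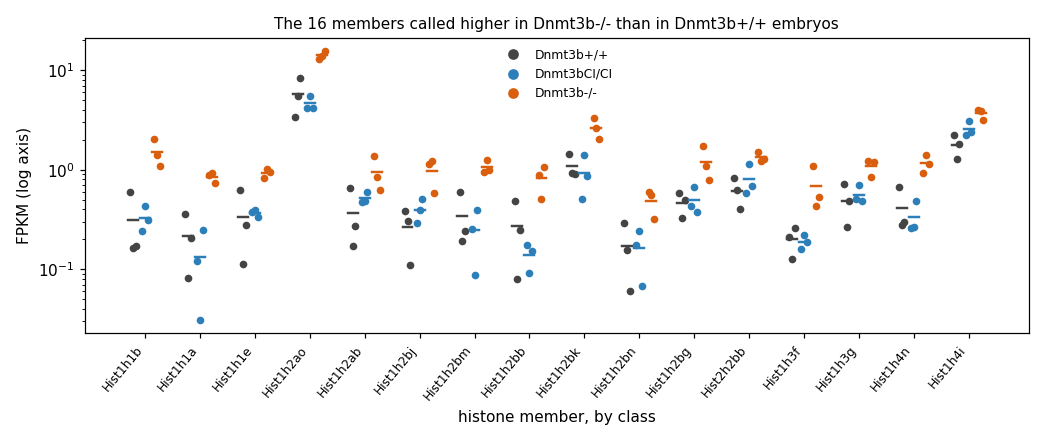
FPKM (log axis) of the 16 members called higher in embryos labelled Dnmt3b-/- than in Dnmt3b+/+ embryos, ordered by class; points are embryos and short lines means of 3. Most of these genes lie near or below 1 FPKM, and Hist1h2ao at 13.1 to 15.6 FPKM in Dnmt3b-/- is the highest.

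In Dnmt3bCI/CI embryos no member was called against Dnmt3b+/+ embryos, in either direction. At an unadjusted p under 0.05, limma found 6 of the 59 members higher and 1 lower, beside 524 higher and 495 lower of all 19397 genes, and voom called none after adjustment either. Of all genes tested, 0.129% were called higher and 0.0% lower, so few calls of any gene were made in this comparison. The median log2 fold change of the members was 0.10, beside 0.02 over all genes. Hist1h2ap had the largest change, 2.65 ± 1.08 on the log2 scale (adjusted p = 0.927), and that of Hist1h1b was 0.20 ± 0.39 (adjusted p = 0.973).

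Between the 2 mutants, embryos labelled Dnmt3b-/- had 14 members called higher and 0 lower than Dnmt3bCI/CI embryos, beside 1.1% of all genes called higher and 4.32% lower. By adjusted p alone 19 members rose and 0 fell, where 9.7% of all genes rose. In 31 of the 59 members all 3 embryos labelled Dnmt3b-/- lay above all 3 Dnmt3bCI/CI embryos, beside 16.7% of all genes. Without the 4 members that passed the filter only through the embryos labelled Dnmt3b-/-, these counts were 14 called, 18 by adjusted p and 29 without overlap, of 55. Without Dnmt3bCI/CI embryo 1 the count called higher was 9. This comparison shares its Dnmt3b-/- embryos with the one above, so the calls of both are not independent. The 3 members called here but not against Dnmt3b+/+ were Hist1h2an (1.28 ± 0.30), Hist2h3b (1.30 ± 0.20, adjusted p = 0.00338) and Hist1h4d (1.38 ± 0.40), with log2 fold changes against Dnmt3b+/+ of 0.74, 0.73 and 1.18. Hist2h3b measured 0.551, 0.494 and 0.522 FPKM in Dnmt3b+/+, 1.23, 0.868 and 0.758 FPKM in embryos labelled Dnmt3b-/- and 0.320, 0.237 and 0.426 FPKM in Dnmt3bCI/CI, with no overlap among the 3 groups. The 3 most abundant members had negative values that did not pass the test, as Hist1h2ak differed by -1.02 ± 0.40 (adjusted p = 0.0866), Hist3h2ba by -0.63 ± 0.28 (adjusted p = 0.127) and Hist1h2ap by -1.58 ± 1.08 (adjusted p = 0.299).

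The summed level overlapped between genotypes, and a few abundant genes held a large part of it. Over all 67 members, the sum was 142, 99.4 and 101 FPKM in Dnmt3b+/+, 165, 138 and 148 FPKM in embryos labelled Dnmt3b-/- and 130, 158 and 154 FPKM in Dnmt3bCI/CI. The ratio to Dnmt3b+/+ was 1.31 for Dnmt3b-/- and 1.29 for Dnmt3bCI/CI. Without Hist1h2ak, Hist1h2ap, Hist3h2a and Hist3h2ba, which were left out after their values were seen, the sum was 64.1, 43.9 and 52.3 FPKM, then 118, 90.5 and 83.7 FPKM, then 49.5, 55.7 and 51.5 FPKM. All 3 embryos labelled Dnmt3b-/- then lay above the other 6, and the ratios were 1.82 and 0.977. By class over all members, the ratio of Dnmt3b-/- to Dnmt3b+/+ was 2.04 for H1, 1.29 for H2A, 0.939 for H2B, 1.73 for H3 and 1.96 for H4. Without Hist3h2ba that of H2B was 1.94, and without Hist1h1c that of H1 was 3.66.

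**Figure D4:**
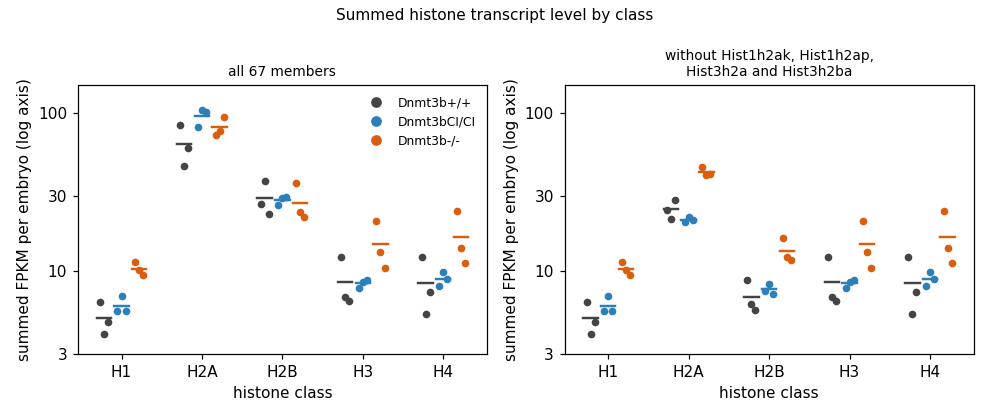
Summed FPKM per embryo (log axis) by histone class, for all 67 members (left) and without the 4 most abundant H2A and H2B genes (right); points are embryos and short lines means of 3. On the right the 3 Dnmt3b-/- embryos lie above the other 6 in H1, H2A and H2B, while in H3 and H4 1 Dnmt3b+/+ embryo reaches the lower Dnmt3b-/- values.

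Hist1h2ap divided the embryos in a way that crossed the genotypes. It measured 18.8, 1.25 and 1.69 FPKM in Dnmt3b+/+, 1.82, 11.7 and 18.8 FPKM in embryos labelled Dnmt3b-/- and 18.1, 23.8 and 25.8 FPKM in Dnmt3bCI/CI. Thus 6 embryos stood at 11.7 FPKM or more and 3 at 1.82 FPKM or less, a gap of 6.41-fold, and the lower 3 were Dnmt3b+/+ embryos 2 and 3 and Dnmt3b-/- embryo 1. The reads behind these values were 239 to 497 in the higher embryos and 30 to 35 in the lower ones, so counting error is small beside the gap. Of its windows, 91.0% occur in other members. Hist1h2ak, with no window shared with another member, was lowest in the same embryos as far as 3 of its 4 lowest values. These were 10.2, 20.2 and 15.2 FPKM, but its levels ran on without a gap.

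Many H2A and H2B genes stand head to head and share the stretch between their starts. There were 12 such pairs with starts under 600 bases apart, all of 1 H2A and 1 H2B gene, 175 to 305 bases apart. Both genes were tested in 9 pairs, and in 0 of these were both called higher in embryos labelled Dnmt3b-/-. In 5 of the 12 pairs 1 gene was called, among them Hist1h2ao, whose partner Hist1h2bq was not tested. Hist1h2bj rose by 1.59 ± 0.36 on the log2 scale beside 0.32 ± 0.16 for its partner Hist1h2ag, and Hist1h2bn by 1.19 ± 0.38 beside 0.06 ± 0.40 for Hist1h2ak. The partners Hist1h2ae and Hist1h2bg were closer, at 0.77 ± 0.22 and 1.18 ± 0.30. Differences within a pair were not tested.

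Promoters were read from 250 bases before to 50 bases after the start in RefSeq sequences of GRCm38.p6, where 62 of the 67 members matched. The letters CCAAT, on either strand, were present in 53 of them, or 85.5%, beside 37.9% of 27025 promoters of all genes. All matched members of H1, H2A, H2B and H3 held them but only 3 of 12 H4 members did. TATAAA was present in 56.5% of the members and 14.2% of all promoters. The octamer ATTTGCAT, known to be bound by Pou2f1, was found in 7 of 18 H2A and 6 of 16 H2B promoters and in none of the other classes, beside 1.8% of all promoters. Matches were not kept apart where motifs met, so a base can belong to more than 1 of them. Among tested H2B members with a matched promoter, 5 had the octamer, and all 5 were called higher in embryos labelled Dnmt3b-/-. Of the 8 without it 2 were. Hist1h2bc and Hist2h2be were tested and not called, but had no matched promoter. The promoters of their head-to-head partners Hist1h2ac and Hist2h2ac hold the octamer. Among tested H2A members 1 of 6 with the octamer and 1 of 10 without it were called, and over all classes 6 of 11 with it and 9 of 43 without it were, with median log2 fold changes of 1.05 and 0.73. These splits cover only members with a matched promoter, were looked at after the calls were known and were not tested. A pair of promoters is shown, for the H1 gene with the largest change and for an H2B gene with the octamer, in lower case with the motifs named above in capitals.
Hist1h1b, minus strand, chr13:21780576-21780875: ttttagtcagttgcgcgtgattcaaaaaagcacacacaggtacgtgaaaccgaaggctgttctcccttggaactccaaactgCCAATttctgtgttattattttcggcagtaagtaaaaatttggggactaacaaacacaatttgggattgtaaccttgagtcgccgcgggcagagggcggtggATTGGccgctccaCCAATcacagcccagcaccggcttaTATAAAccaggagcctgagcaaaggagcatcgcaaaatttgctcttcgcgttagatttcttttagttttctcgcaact
Hist1h2bm, plus strand, chr13:21721794-21722093: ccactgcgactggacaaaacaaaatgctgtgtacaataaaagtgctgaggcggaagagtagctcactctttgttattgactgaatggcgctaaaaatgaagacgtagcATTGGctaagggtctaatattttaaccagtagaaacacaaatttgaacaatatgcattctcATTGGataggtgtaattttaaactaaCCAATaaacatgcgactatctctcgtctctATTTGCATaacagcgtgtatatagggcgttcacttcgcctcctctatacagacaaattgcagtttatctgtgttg

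The calls were also counted by features that they did not use. Of 14 tested members without a shared window 4 were called higher in embryos labelled Dnmt3b-/- against Dnmt3b+/+, of 29 with under 50% shared 9 were, and of 16 with at least 50% shared 3 were. The median log2 fold changes of these 3 sets were 0.73, 0.80 and 0.66. Members whose annotated exon ended at most 100 bases past the stem-loop had 12 calls among 34 and a median of 0.96, and those with a longer end had 4 calls among 23 and a median of 0.64. All 48 tested members of the Hist1 clusters, the 4 that passed the filter only with the embryos labelled Dnmt3b-/- included, had a positive log2 fold change, with a median of 0.86, while the 9 tested Hist2 members had a median of 0.13 and 5 positive values. Of all 19397 genes tested, 8127 had a positive value.

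Replication-independent histones rose less than 2-fold. Of the 14 replication-independent histones 11 were tested, and 0 passed the 2-fold limit in any comparison. By adjusted p alone 10 of the 11 rose and 0 fell in embryos labelled Dnmt3b-/- against Dnmt3b+/+, with a median log2 fold change of 0.40. Among all genes tested 9.41% rose and 16.4% fell by adjusted p. H2afz, the most abundant, measured 150, 115 and 140 FPKM in Dnmt3b+/+, 210, 241 and 232 FPKM in embryos labelled Dnmt3b-/- and 128, 136 and 136 FPKM in Dnmt3bCI/CI, with no overlap between the embryos labelled Dnmt3b-/- and the other 6 (0.76 ± 0.10, adjusted p = 0.0025). Together these 14 genes summed to 709 to 1090 FPKM per embryo, above the 99.4 to 165 FPKM of the 67 members. Other RNAs known to lack a poly(A) tail were low as well, as the 9 in the table summed to 2.40 to 5.25 FPKM per embryo and 0 passed the test between Dnmt3b-/- and Dnmt3b+/+. Scarna17, a small Cajal body RNA, was the highest of them, at 1.13, 0.762 and 1.29 FPKM in Dnmt3b+/+, 1.90, 0.298 and 0.281 FPKM in embryos labelled Dnmt3b-/- and 0.564, 1.46 and 0.658 FPKM in Dnmt3bCI/CI. Between the 2 mutants Rpph1, the RNA of ribonuclease P, was higher in embryos labelled Dnmt3b-/- (1.98 ± 0.62 on the log2 scale, adjusted p = 0.0452) and Scarna13 was lower (-1.42 ± 0.39, adjusted p = 0.0277). Both calls rest on values near the floor in 1 group. Rpph1 was at 0.419, 0.217 and 0.163 FPKM in Dnmt3bCI/CI, and Scarna13 at 0.365, 0.0855 and 0.0807 FPKM in embryos labelled Dnmt3b-/-.

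Most S phase genes rose under the label Dnmt3b-/-. None of the 26 passed the 2-fold limit against Dnmt3b+/+, but 15 rose and 0 fell by adjusted p, with a median log2 fold change of 0.44. By the same measure 9.41% of all genes tested rose and 16.4% fell. Pcna, the sliding clamp of DNA polymerase and the highest of the list, measured 45.6, 32.6 and 38.0 FPKM in Dnmt3b+/+, 51.6, 62.7 and 59 FPKM in embryos labelled Dnmt3b-/- and 40.0, 37.3 and 39.0 FPKM in Dnmt3bCI/CI. Rrm2, a subunit of ribonucleotide reductase, was the 1 gene of the list called in a comparison, higher in embryos labelled Dnmt3b-/- than in Dnmt3bCI/CI (1.04 ± 0.19, adjusted p = 0.00599). Of the 11 G2 and mitosis genes 9 rose and 0 fell by adjusted p against Dnmt3b+/+, with a median of 0.62, and Top2a was the highest at 25.2, 17.2 and 21.4 FPKM, then 29.5, 36.6 and 40.0 FPKM, then 20.5, 16.9 and 18.8 FPKM. In both lists Dnmt3b-/- embryo 1 had the lowest sum of its group. Of 8 tested genes of cell cycle exit, the inhibitor Cdkn1a was called higher (1.04 ± 0.12, adjusted p = 0.00117), at 7.41, 8.20 and 9.26 FPKM in Dnmt3b+/+ and 19.5, 16.6 and 15.2 FPKM in embryos labelled Dnmt3b-/-. The highest of that list, Cdkn1c, measured 272, 349 and 365 FPKM and 404, 260 and 212 FPKM, with overlapping groups.

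No factor that makes, processes or degrades histone mRNA passed the 2-fold limit. Of 21 such genes, 3 rose and 2 fell by adjusted p in embryos labelled Dnmt3b-/- against Dnmt3b+/+. Of all genes tested, 9.41% rose and 16.4% fell in this way. Srrt, which links the mRNA cap to 3′ end formation, was the highest, at 26.3, 24.5 and 25.0 FPKM in Dnmt3b+/+, 33.1, 30.5 and 30.3 FPKM in embryos labelled Dnmt3b-/- and 25.0, 27 and 25.6 FPKM in Dnmt3bCI/CI (0.31 ± 0.06, adjusted p = 0.00782). Slbp, the stem-loop binding protein, changed by 0.39 ± 0.13 (adjusted p = 0.0585) and Npat, the coactivator of histone genes, by -0.07 ± 0.13 (adjusted p = 0.724). Lsm11, a part of the U7 particle that cuts histone mRNA, fell by 0.44 on the log2 scale (adjusted p = 0.0179). Among 14 histone chaperones 8 rose and 1 fell by adjusted p, all below 2-fold. Rbbp7 was the highest of them, at 35.4, 29.0 and 35.4 FPKM, then 32.7, 41.2 and 39.1 FPKM, then 38.1, 33.1 and 34.4 FPKM, with overlapping groups, while Nasp, which carries free H3 and H4, rose by 0.67 ± 0.14 (adjusted p = 0.0101).

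**Figure D5:**
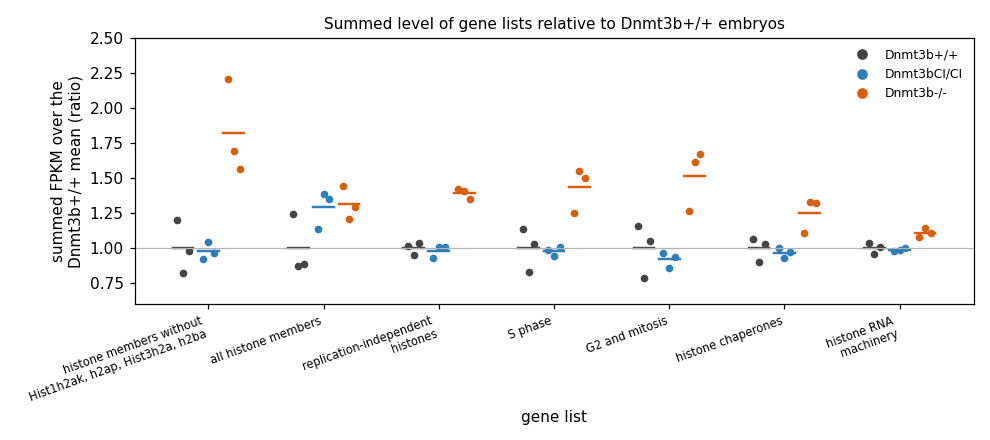
Summed FPKM of each gene list per embryo divided by the Dnmt3b+/+ mean (ratio); points are embryos and short lines means of 3. All 67 histone members reach a mean ratio of 1.31 in Dnmt3b-/- and 1.29 in Dnmt3bCI/CI, and without 4 abundant genes left out after their values were seen 1.82 and 0.977, beside 1.44 for the S phase list, 1.51 for the G2 and mitosis list and 1.39 for the replication-independent histones in Dnmt3b-/-.

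Markers of particular cells moved along the same comparison, and their part in the histone values was not tested. Of 8 red cell genes 2, the embryonic globins Hba-x and Hbb-bh1, were called higher in embryos labelled Dnmt3b-/- than in Dnmt3b+/+ (1.79 ± 0.42 and 3.01 ± 0.48 on the log2 scale). The other 6 did not pass the test, with Hba-a1 at -0.46 ± 0.40, Hba-a2 at -0.60 ± 0.41 and Hbb-y at 0.76 ± 0.37. The list, led by Hbb-y, summed to 2290 to 2910 FPKM in Dnmt3b+/+, 2240 to 6990 FPKM in embryos labelled Dnmt3b-/- and 2120 to 2880 FPKM in Dnmt3bCI/CI. Of 3 germ cell genes 2, Dazl and Ddx4, were called higher against Dnmt3b+/+ (4.02 ± 0.27 and 3.61 ± 0.19 on the log2 scale). Ddx4 was also higher in Dnmt3bCI/CI than in Dnmt3b+/+ (2.04 ± 0.19), and the list, led by Dazl, summed to 0.240 to 0.550, 4.91 to 5.36 and 0.872 to 1.15 FPKM in these groups. The paper describes Ddx4 as a Dnmt3b target that was less methylated in both mutants. It names Dazl among genes earlier found to depend on methylation alone for their expression. The levels of these 2 genes are therefore no measure of germ cell number here. Of 7 markers of embryonic tissue 1, the muscle factor Myog, was called lower against Dnmt3b+/+, Col2a1 and Myog were called lower against Dnmt3bCI/CI, and the list, led by the cartilage gene Col2a1, summed to 247 to 316, 226 to 273 and 311 to 337 FPKM. No gene among the 4 macrophage markers was called, and they summed to 12.4 to 13.5, 9.84 to 12.5 and 15 to 16 FPKM, with C1qa the highest.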

How the data were processed

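RNA was sequenced from 9 whole embryos, 3 per genotype, as paired-end reads of 150 bases. The authors trimmed reads, aligned them with STAR to mm10, kept well-mapped reads and quantified genes in SeqMonk, and deposited FPKM per gene. Those FPKM values were taken as deposited, and 1 entry without a name was left out. The bisulfite libraries of the series were not analysed here.

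Values were compared as log2(FPKM + 0.1) with limma 3.58.1 (R 4.3.3, trend), over all 9 embryos in 1 fit, for 19397 genes at 0.1 FPKM or more in at least 3 embryos, with Benjamini-Hochberg adjustment. Calls needed an adjusted p under 0.05 and a 2-fold change. Tests were two-sided and were tested on simulated data, where the changes were larger than 2-fold and lay in genes with many reads. Of the 59 tested members 32 had under 20 mean reads, and these held 11 of the 16 calls against Dnmt3b+/+. The simulated data do not show how well changes in such members are found. Members called in any comparison, the 3 highest of each class and the testis-expressed ones were named, with the highest gene and called genes of each list. Exons and stem-loops came from GENCODE M21 on GRCm38. The members and gene lists were chosen with earlier results of these data known. Whole reads were worked back from the FPKM for 99.5% of genes and tested with voom as an alternative, beside other pseudocounts, filters, scalings, a replicate block and leaving out each embryo. Each library came from a separate embryo.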

Additional observations from a re-analysis of the deposited data

How the results depend on the processing

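In Dnmt3bCI/CI against Dnmt3b+/+ 0 members were called in every alternative. Against Dnmt3b+/+ the 16 members higher under the label Dnmt3b-/- became 1 with a pseudocount of 1 FPKM, 7 without a filter and 5 with a filter of 1 FPKM, and 5 to 19 when 1 embryo was left out (5 without Dnmt3b-/- embryo 2, 6 without Dnmt3b+/+ embryo 2 or 3, 7 without Dnmt3b-/- embryo 1). Quantile normalization gave 22 members, with 272 of all genes higher and 392 lower in place of 208 and 655. Against Dnmt3bCI/CI the 14 higher members became 2, 4 and 22 with the pseudocount of 1, the filter of 1 FPKM and quantile normalization, and 9 to 16 leaving 1 embryo out. The count of 0 lower became 1 with only both genotypes fitted and 0 to 1 leaving 1 embryo out. The median log2 fold change of 0.74 became 0.35 with a pseudocount of 1. That of Dnmt3bCI/CI against Dnmt3b+/+, 0.10, became 0.02 with a pseudocount of 1, 0.04 without a filter, 0.20 with the filter of 1 FPKM, 0.06 with quantile normalization and -0.05 to 0.21 leaving 1 embryo out. Replicate numbers did not pair the embryos (mean correlation of their deviations -0.0866), and with the replicate number as a block 13 members were called higher against Dnmt3b+/+ and 14 against Dnmt3bCI/CI.

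Ratios of summed FPKM without the highest member of each class were 1.61 for all members, 3.66 for H1 and 1.94 for H2B for Dnmt3b-/- over Dnmt3b+/+, and 0.953 for H1, 1.3 for H2A and 1.12 for H2B for Dnmt3bCI/CI. Without Hist1h2ak, Hist1h2ap, Hist3h2a and Hist3h2ba, an alternative chosen after seeing the data, they were 1.82, 1.73 and 1.94 for all members, H2A and H2B for Dnmt3b-/-, and 0.977, 0.862 and 1.12 for Dnmt3bCI/CI. Leaving 1 embryo out gave 1.24 to 1.5 for all members, 1.85 to 2.35 for H1 and 1.13 to 1.54 for H2A for Dnmt3b-/-. For Dnmt3bCI/CI it gave 1.21 to 1.47 for all members, 1.08 to 1.38 for H1, 1.33 to 1.81 for H2A, 0.887 to 1.14 for H2B, 0.872 to 1.26 for H3 and 0.904 to 1.4 for H4. Of 1581 values of named members under alternatives, 140 lost a call, 19 gained one and 0 reversed. Only the 16 members called against Dnmt3b+/+ and the 14 called against Dnmt3bCI/CI had a call to lose. Most of the 1581 values belong to changes that were not called in the main fit, so 140 is not to be read as a share of 1581. The cause of these shifts was not tested. Low read numbers limit members near 1 FPKM.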

Other observations

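The genes whose FPKM ranked the 9 embryos most like the summed level of the 67 histone members, among 11468 genes compared, were Jmjd4 (Spearman's rho 0.95), 4930524O07Rik and Mocs1 (0.917 each) and Gm10282 (0.9). A further set at 0.883 held CT030173.1, Cnnm4, Fance and Gm20512, and 11 genes reached at least that value. All points share the same 9 libraries and their depth, and these values are a description over few embryos.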
